A study of Mus musculus with 20 samples.

Results

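BNAP/GRP1 cells and GRP3 cells, a pair of intermediate progenitor populations of the neonatal mouse brain, were compared with each other directly. The comparison took every library of these populations, BNAP/GRP1 1 to 4 and GRP3 1 to 4, which are 8 of the 20 libraries of the series, and paired them by batch number. Of 45705 genes in the deposited RPKM table (read counts corrected for the length of the gene and the size of the library), 17213 were tested, namely those that reached 1 RPKM in 4 or more of the compared libraries. The series holds 5 populations with 4 libraries each: neural stem cells, BNAP/GRP1, GRP2/MP3, GRP3 and PFMP. All came from the periventricular zone, the tissue beside the lateral ventricle, of Swiss Webster mouse pups at P5 (postnatal day 5), with no genetic change or treatment, and pups of both sexes were pooled. The tissue was dissociated with Liberase, and live cells were sorted by flow cytometry on CD133, LeX/CD15, CD140a and NG2. Each batch is labelled as such, and the study describes its 4 repeats as independent experiments.

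BNAP stands for a bipotential progenitor of neurons and astrocytes, and GRP for a glial-restricted progenitor. In the study's gates the GRP3 cells carried both CD140a and NG2, while the BNAP/GRP1 cells carried NG2 and LeX/CD15 but not CD140a. CD140a is the PDGF receptor alpha, through which PDGF-A keeps oligodendrocyte progenitor cells (OPCs) dividing, and NG2 is a proteoglycan of OPCs, pericytes and some other cells. OPCs arise from neural stem cells under the transcription factors Olig1, Olig2 and Sox10 and later make myelin. Microglia, the resident macrophages of the brain, come from yolk sac precursors rather than from neural stem cells. They depend on the transcription factor PU.1 and signal through receptors that couple to the adaptor Tyrobp and the kinase Syk. A sorted population is a bulk sample, in which fewer cells of a type and less RNA per cell cannot be told apart.

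The 8 libraries were not alike in estimated depth, and batch 3 and the library BNAP/GRP1 4 stood apart. Read totals are unknown. A relative depth was estimated as the inverse of the commonest ratio of RPKM to that in BNAP/GRP1 1, over genes above 0 in both. This estimate, not checked against read totals, was between 0.193 and 1.41 in 7 libraries and 0.0395 in BNAP/GRP1 4. That library had 18496 genes at 10 RPKM or more, against 5954 to 7808 in the others. BNAP/GRP1 4 and GRP3 4 also had the most genes at 1 RPKM or more, 37854 and 34536, against 13008 to 17805 elsewhere. They had the most genes above 0 as well, 38191 and 39689, against 20428 to 31999, although the estimated relative depth of GRP3 4 was 0.275. Why low values were so common in batch 4 was not tested. In batch 3 the populations were nearly the same: over the tested genes their log2 values correlated at 0.971, against 0.813, 0.632 and 0.521 in batches 1, 2 and 4. Genes averaging 1000 RPKM or more differed in batch 3 by a median of 0.0319 on the log2 scale (152 genes), against 0.599, 1.9 and 2.15 in batches 1, 2 and 4. The differences of batches 1 and 2 correlated at 0.403 over genes, while those of every other pair of batches correlated at 0.0022 to 0.190. These correlations are across 17213 genes, which are not independent replicates. Whether cells or RNA of the populations were mixed in batch 3 was not tested, so each gene is given below in every library.

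**Figure D1:**
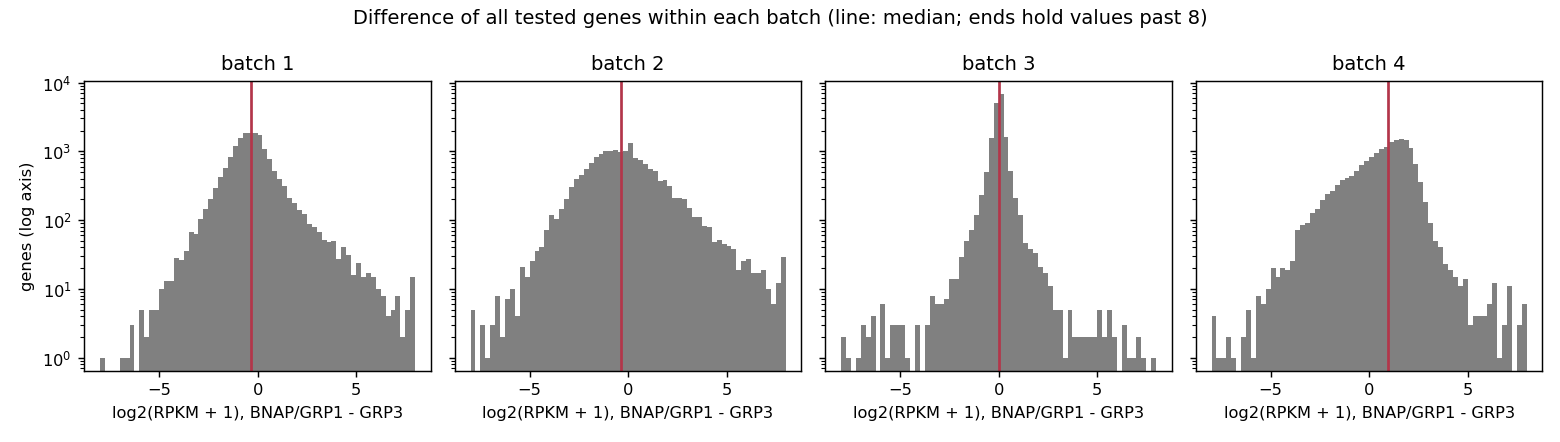
Each panel shows, for 1 batch, the number of tested genes (vertical log axis) at each difference in log2(RPKM + 1), BNAP/GRP1 minus GRP3, with the median as a line. The distribution is narrow in batch 3 (SD 0.557) and lies to the right in batch 4, where the median is 0.96, against -0.35 in batches 1 and 2.

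Between the populations, 25 genes passed an adjusted p of 0.05 in limma on log2(RPKM + 1) with the batch as a block. Of the tested genes, 8 were higher in BNAP/GRP1 (0.0465%) and 17 lower (0.0988%). The 8 protein-coding genes among them divided cleanly: Cd52 and Trem2, genes of leukocytes and microglia, rose in BNAP/GRP1, and Pdgfra, Olig1, Olig2, Lhfpl3, Cntn1 and Scrg1, most of them known from OPCs, fell. The other 17 were short noncoding or pseudogene transcripts and are described last. At an unadjusted p under 0.05 there were 962 genes higher (5.59%) and 656 lower (3.81%), counts that are the background for the lists below. The call depended on the model: without the block, no gene passed an adjusted p of 0.05, with 220 genes higher and 86 lower at an unadjusted p under 0.05. Without batch 3, 303 genes rose and 148 fell, and without batch 4 none was called (429 higher and 599 lower at an unadjusted p under 0.05). The fit without batch 3 took the spread as nearly the same for all genes of a level, which makes calls easier, so its calls are given beside those of 4 batches. Each of the 25 genes kept its call in 2 to 6 of 17 alternative fits, so the calls of single genes are fragile. Their direction did not change, but several of these fits return the same difference and so cannot change it. A difference below is BNAP/GRP1 minus GRP3 on the log2(RPKM + 1) scale, with limma's moderated SE over 4 batches, which borrows from other genes. The difference understates the change of genes with low RPKM.

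**Figure D2:**
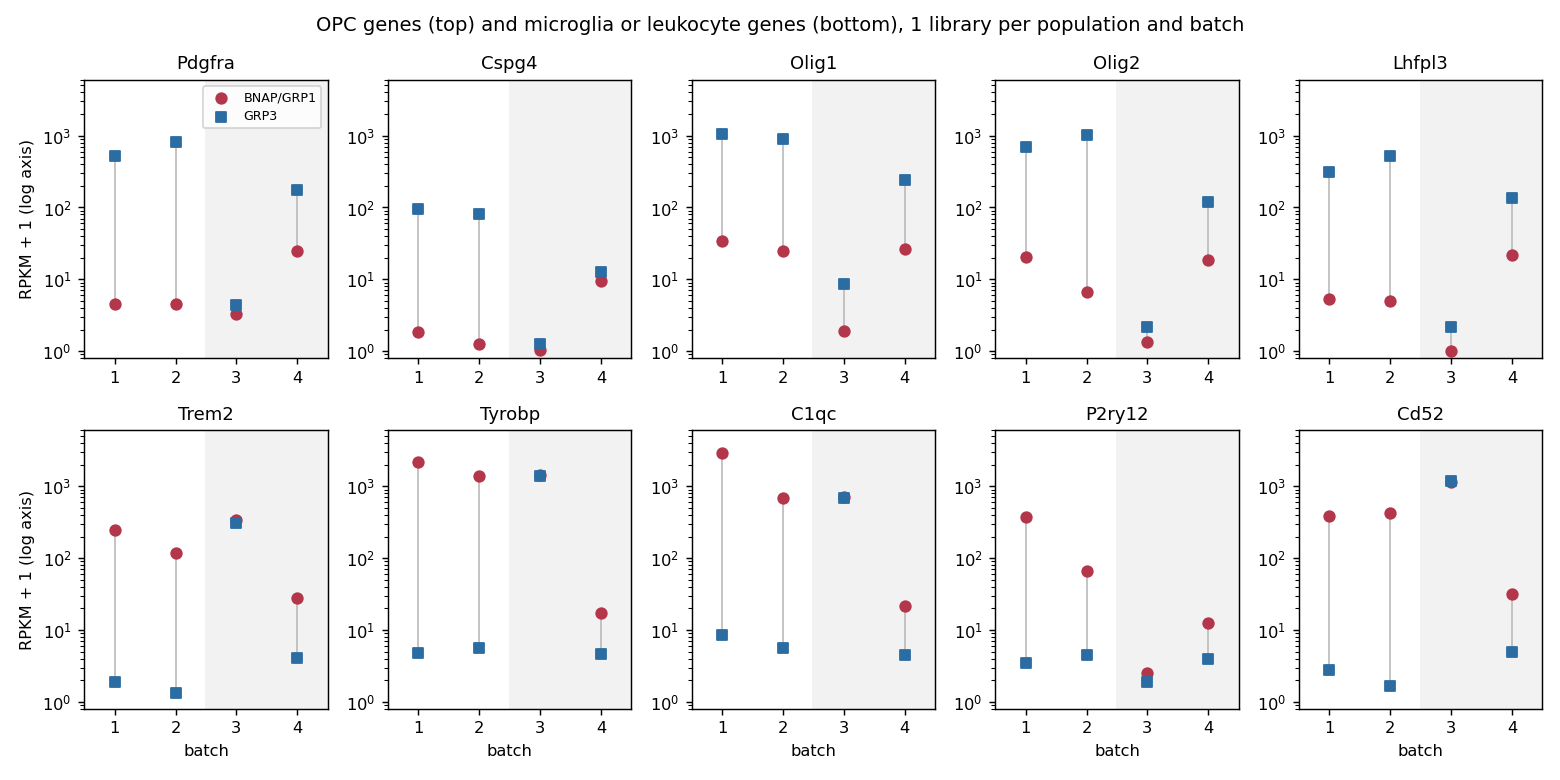
RPKM + 1 (log axis) of 10 genes in each of the 8 libraries, by batch, with BNAP/GRP1 as circles and GRP3 as squares joined by a line, and batches 3 and 4 shaded. In batches 1 and 2 the upper genes lie far higher in GRP3 and the lower genes far higher in BNAP/GRP1. In batch 3 the pairs of Trem2, Tyrobp, C1qc, P2ry12 and Cd52 nearly coincide.

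The genes of the sorting antigens came first, as the check of the labels. Pdgfra, which encodes CD140a (chr5:75152292-75198215 in GRCm38), stood at 512, 803, 3.41 and 172 RPKM in GRP3 1 to 4. In BNAP/GRP1 1 to 4 it stood at 3.59, 3.47, 2.26 and 24.1 RPKM. GRP3 was above BNAP/GRP1 in every batch, but GRP3 3 was lower than BNAP/GRP1 1, 2 and 4, so the populations overlapped through GRP3 3. GRP3 had 142 times the RPKM of BNAP/GRP1 in batch 1, 232 times in batch 2 and 7.11 times in batch 4. The difference was -4.38 ± 0.83 (SE, adjusted p = 0.0333). Since CD140a was a criterion of the gate, this difference checks the sort and is not a finding about the cells.

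Cspg4, which encodes NG2, was at 93.2, 80.9, 0.245 and 11.7 RPKM in GRP3 and at 0.844, 0.249, 0.0362 and 8.49 RPKM in BNAP/GRP1. Both gates asked for NG2, yet its RNA was high in GRP3 1 and 2 alone and under 1 RPKM in BNAP/GRP1 1 to 3 (-3.10 ± 0.85, adjusted p = 0.119). Prom1, which encodes CD133, was at 6.13, 9.19, 0.662 and 35.5 RPKM in BNAP/GRP1 and 10.9, 8.92, 0.991 and 12.9 RPKM in GRP3. Fut9, a fucosyltransferase that makes the LeX sugar in the brain, was at 2.33, 1.17, 0.0581 and 8.12 RPKM in BNAP/GRP1 and 13.2, 14.9, 0.0800 and 7.94 RPKM in GRP3, so it was higher in GRP3 1 and 2 (-1.24 ± 0.67, adjusted p = 0.602). Of these 5 genes, with Fut4, 1 was called, which was Pdgfra. Of the PDGF ligands and the other receptor, Pdgfa (the ligand of CD140a) differed by -0.69 ± 0.55 and Pdgfb by 1.40 ± 0.64 (adjusted p = 0.767 and 0.491). Pdgfrb and Pdgfd were too low to be tested.

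Transcription factors of OPCs were lower in BNAP/GRP1. All 11 of the list were tested, and 2 fell (Olig1 and Olig2, against a background of 0.0988%). An unadjusted p under 0.05 was reached by 7, all lower (background 3.81%). The median difference was -1.83, beside 0.0013 over all tested genes, and the batch medians were -3.35, -3.51, -0.25 and -0.60 in batches 1 to 4. Olig1, a basic helix-loop-helix factor of the oligodendrocyte lineage, was at 1064, 897, 7.70 and 240.2 RPKM in GRP3. In BNAP/GRP1 it was at 33.6, 24.1, 0.926 and 25.3 RPKM (-3.87 ± 0.61, adjusted p = 0.0065). Olig2, which specifies the lineage, was at 703, 1025, 1.18 and 118 RPKM in GRP3 and 19.8, 5.63, 0.340 and 17.4 RPKM in BNAP/GRP1 (-3.94 ± 0.76, adjusted p = 0.035). For both genes, GRP3 1, 2 and 4 lay above every BNAP/GRP1 library, while GRP3 3 lay within the BNAP/GRP1 range.

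Sox10, which turns on myelin genes, followed the same order, at 185, 92.2, 1.19 and 55.9 RPKM in GRP3 and 3.33, 3.91, 0 and 13.7 RPKM in BNAP/GRP1 (-3.19 ± 0.67, adjusted p = 0.0598). Sox8, its close relative, differed by -2.39 ± 0.67 (adjusted p = 0.124), Myt1 by -2.05 ± 0.67 (adjusted p = 0.214), and Nkx2-2, a homeodomain factor of differentiating OPCs, by -1.83 ± 0.69 (adjusted p = 0.327). Nkx6-2 was the exception in sign, at 7.03, 2.89, 1.03 and 16.6 RPKM in BNAP/GRP1 and 6.81, 6.09, 0.649 and 1.80 RPKM in GRP3, and its sign turned in 4 of 17 alternative fits. At least 1 log2 unit lower in both batches 1 and 2 were 9 of the 11, against 13.3% of all tested genes. Lower in all 4 batches were 7, against 6.80%. Without batch 3, 5 of the 11 fell (Olig1, Olig2, Sox10, Sox8 and Myt1), against 0.860% of all genes. Without batch 3 and BNAP/GRP1 4, and then without the block, Sox8 alone of the 11 fell, against 0.134%.

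Membrane and matrix genes of OPCs gave the same picture. Of 16 tested, Lhfpl3 fell (background 0.0988%) and 10 were lower at an unadjusted p under 0.05 (background 3.81%). All 16 were lower in both batch 1 and batch 2. Of all 17213 genes, 11157 were lower in batch 1 and 9993 in batch 2. Their median difference was -2.11, with batch medians of -3.65, -2.85, -0.03 and -0.94. Lhfpl3, a tetraspan membrane protein (chr5:22746059-23275597), was at 307, 517, 1.17 and 134 RPKM in GRP3. In BNAP/GRP1 it was at 4.30, 4.03, 0 and 21.0 RPKM (-4.07 ± 0.74, adjusted p = 0.0234). Again GRP3 1, 2 and 4 lay above all BNAP/GRP1 libraries and GRP3 3 among them. C1ql1, a secreted C1q-like protein, differed by -2.93 ± 0.76, and Gpr17, a receptor of OPCs about to differentiate, by -2.63 ± 0.72 (adjusted p = 0.102 and 0.117). The proteoglycan Cspg5 was at 788, 748, 1.53 and 230.4 RPKM in GRP3 and 43.5, 66.6, 1.74 and 67.0 RPKM in BNAP/GRP1, and the phosphatase Ptprz1 at 333, 509, 1.10 and 164 and 64.8, 34.6, 0.510 and 27.8 RPKM. Both were higher in GRP3 in batches 1, 2 and 4 (adjusted p = 0.13 and 0.103). Ncan, a matrix proteoglycan, was at 1697 RPKM in GRP3 4 and at most 30.1 RPKM in the other GRP3 libraries. Without batch 3, 9 of the 16 fell, among them Bcan, C1ql1, Cspg5 and Pcdh15, against 0.860% of all genes.

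Cntn1 and Scrg1 belonged to none of the lists and also fell. Cntn1, a contactin of axons and glia, was at 137, 228, 0.602 and 241 RPKM in GRP3 and 5.62, 4.98, 0.0328 and 29.1 RPKM in BNAP/GRP1 (-3.32 ± 0.66, adjusted p = 0.0434). Scrg1, a small secreted protein, was at 563, 219, 1.99 and 298 RPKM in GRP3 and 23.1, 38.6, 0.0174 and 32.3 RPKM in BNAP/GRP1 (-2.94 ± 0.59, adjusted p = 0.0434). For both genes GRP3 1, 2 and 4 lay above every BNAP/GRP1 library, and GRP3 3 lay within the BNAP/GRP1 range.

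OPC receptors and channels were lower as well, with no call after adjustment. Of 18 genes 16 were tested, 9 were lower at an unadjusted p under 0.05 (background 3.81%), and the median was -1.42. Kcnd2, a potassium channel subunit, was at 56.4, 111, 0.126 and 26.3 RPKM in GRP3 and 2.27, 2.43, 0.0144 and 8.61 RPKM in BNAP/GRP1 (-2.70 ± 0.73, adjusted p = 0.117). The AMPA receptor subunit Gria2 differed by -2.14 ± 0.58, Nlgn3, a synaptic adhesion protein, by -2.16 ± 0.65, and the NMDA receptor subunit Grin3a by -2.28 ± 0.73 (adjusted p = 0.118, 0.167 and 0.208). Cacng5 and Grm7 were the 2 members with a difference above 0, at 0.79 ± 0.62 and 0.56 ± 0.63, and the sign of Grm7 turned in 1 alternative fit. Over the 3 OPC lists together, 3 of 43 tested genes fell, against 0.0988% of all genes. At least 1 log2 unit lower in both batches 1 and 2 were 35, against 13.3% of all genes. None of the 43 was that much higher in both.

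Genes of later and neighbouring steps were less uniform. Of 15 myelin genes 10 were tested and none was called, with a median of -0.77 and 2 lower at an unadjusted p under 0.05. Bcas1, a gene of newly forming oligodendrocytes, differed by -2.14 ± 0.64 and Ugt8a, which makes myelin lipid, by -1.75 ± 0.66 (adjusted p = 0.154 and 0.329). Mbp, a main protein of myelin, was at 33.8, 2.33, 8.66 and 22.6 RPKM in BNAP/GRP1. In GRP3 it was at 16.4, 13.3, 9.56 and 10.3 RPKM, so that BNAP/GRP1 was above GRP3 in batch 1 and below it in batch 2. Among 11 ETS factors and feedback inhibitors induced by ERK signalling, none was called and the median was -0.92. Spry1, an inhibitor of receptor tyrosine kinase signalling, was at 111, 154, 1.02 and 21.2 RPKM in GRP3 and 3.01, 0.479, 1.46 and 11.4 RPKM in BNAP/GRP1 (-3.02 ± 0.84, adjusted p = 0.124). Spry4 had the same order (-2.0 ± 0.70, adjusted p = 0.273), while Dusp6, a phosphatase of ERK, differed by -0.17 ± 0.56 (adjusted p = 0.958).

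Microglia genes were higher in BNAP/GRP1. All 20 genes of the homeostatic microglia list were tested and 1 rose, which was Trem2 (background 0.0465%), while 19 were higher at an unadjusted p under 0.05, against 5.59% of all genes. The median difference was 3.27, and the batch medians were 6.94, 5.0, 0.02 and 1.97, beside -0.35, -0.35, 0 and 0.96 over all tested genes. At least 1 log2 unit higher in batches 1 and 2 were 19 of the 20, against 5.93% of all genes, and 11 were higher in all 4 batches, against 7.30%. In batch 4 the median was closer to that of all genes than in batches 1 and 2.

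Trem2, a lipid receptor of microglia that signals through Tyrobp (chr17:48346401-48354147), was at 247, 116, 334 and 27.1 RPKM in BNAP/GRP1. In GRP3 it was at 0.886, 0.346, 310.4 and 3.13 RPKM (4.09 ± 0.81, adjusted p = 0.0434). Every BNAP/GRP1 library lay above GRP3 1, 2 and 4, and GRP3 3 lay among the BNAP/GRP1 libraries. Cd52, a surface glycoprotein of leukocytes, was at 389.9, 417, 1155 and 30.2 RPKM in BNAP/GRP1 and 1.80, 0.662, 1182 and 3.87 RPKM in GRP3 (4.44 ± 0.89, adjusted p = 0.0439). BNAP/GRP1 had 279 and 336 times the Trem2 RPKM of GRP3 in batches 1 and 2, and 217 and 629.7 times the Cd52 RPKM.

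Tyrobp, the adaptor itself, was at 2189, 1399, 1436 and 16.0 RPKM in BNAP/GRP1 and 3.82, 4.55, 1375 and 3.70 RPKM in GRP3 (4.68 ± 1.00, adjusted p = 0.0599). The complement chain C1qc was at 2942, 690.0, 699.6 and 20.7 RPKM in BNAP/GRP1 and 7.41, 4.60, 693 and 3.53 RPKM in GRP3 (4.42 ± 0.93, adjusted p = 0.058). For both genes the BNAP/GRP1 libraries 1 to 3 and GRP3 3 were high, BNAP/GRP1 4 was low, and GRP3 1, 2 and 4 were lowest. P2ry12, a purinergic receptor that marks resting microglia, was at 368, 64.7, 1.49 and 11.5 RPKM in BNAP/GRP1 and 2.48, 3.46, 0.915 and 2.97 RPKM in GRP3 (3.16 ± 0.78, adjusted p = 0.0925). Cx3cr1, the fractalkine receptor, was at 231, 39.2, 0.478 and 10.7 RPKM in BNAP/GRP1 and 0.847, 0.233, 1.18 and 1.77 RPKM in GRP3. These 2 genes were high in BNAP/GRP1 1 and 2 only. They were near 1 RPKM in both libraries of batch 3, unlike Tyrobp and C1qc. Without batch 3, 19 of the 20 genes rose, against 1.76% of all genes. Without batch 3 and BNAP/GRP1 4, and then without the block, 12 rose, against 0.320%.

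The summed RPKM of the 20 genes was 19643, 5136, 8159 and 277 in BNAP/GRP1 1 to 4 and 73.0, 62.3, 8034 and 65.4 in GRP3 1 to 4. No gene of the list was called lower, and the defining markers Tmem119, P2ry12, Cx3cr1 and Siglech stood between 0.0642 and 3.46 RPKM in GRP3 1 and 2. Neural genes were present beside them in BNAP/GRP1 1 and 2: Sox2, a factor of neural progenitors, was at 75.7 and 18.3 RPKM, Fabp7, a fatty acid carrier of radial glia, at 3102 and 4424 RPKM. The study calls both populations neural progenitors. It also reports immune-related genes among those upregulated in BNAP/GRP1, and names contamination by cells of adjacent brain tissue as a limit. BNAP/GRP1 1 and 2 held RNA of neural progenitor genes together with RNA of genes known from microglia. Sox2 and Fabp7 were higher still in GRP3 1 and 2, so they do not mark BNAP/GRP1. How many cells of each kind the sort collected was not tested.

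**Figure D3:**
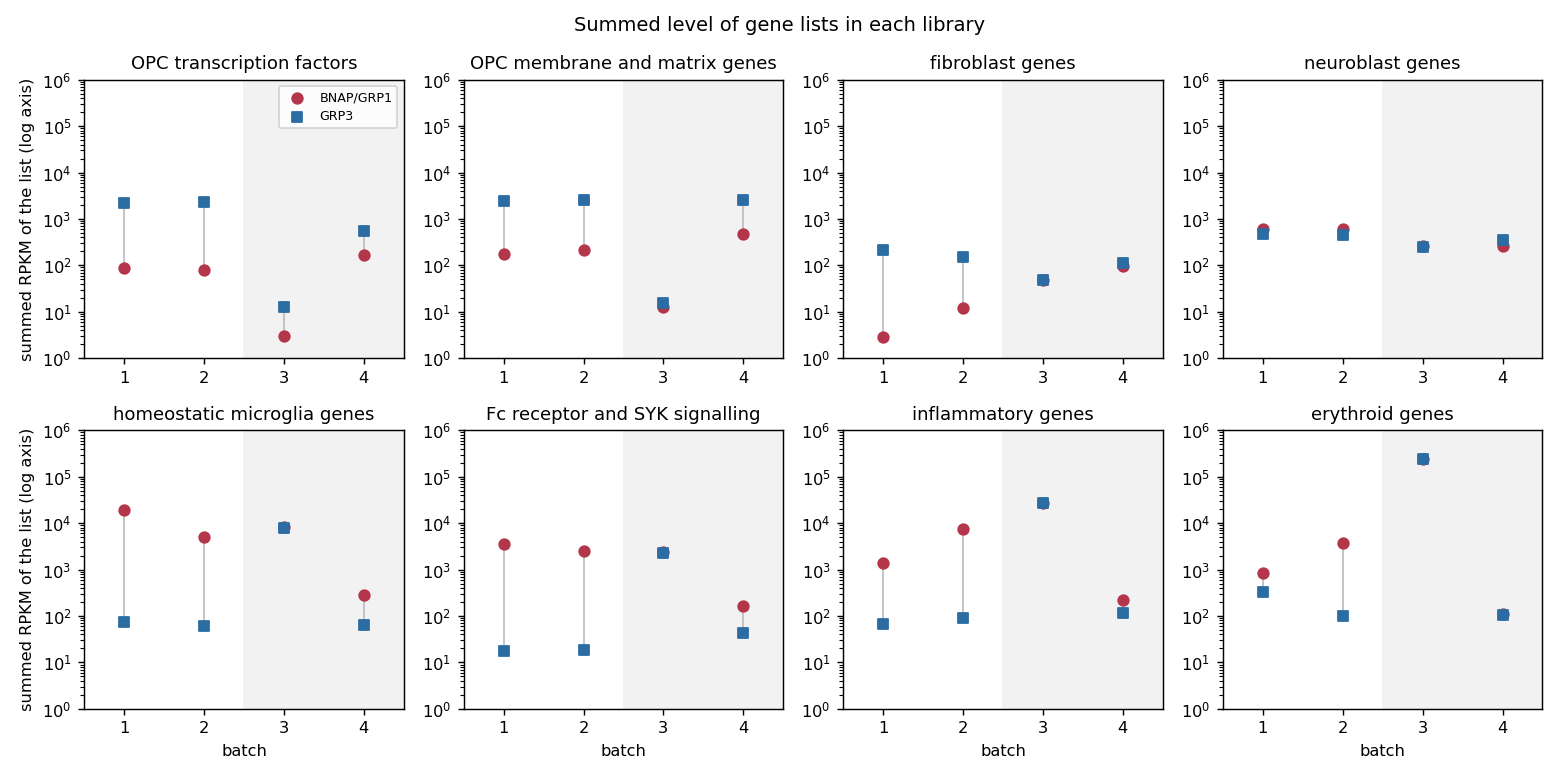
Summed RPKM of the gene lists (log axis) in each library, by batch, with BNAP/GRP1 as circles and GRP3 as squares, and batches 3 and 4 shaded. For homeostatic microglia genes GRP3 3 stands at 8034 RPKM while GRP3 1, 2 and 4 stand at 73.0, 62.3 and 65.4 RPKM.

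Promoters of the microglia and OPC genes are shown because PU.1, an ETS factor, binds a GGAAGT core in macrophage promoters, and Olig factors bind E-boxes such as CAGCTG. Windows from 250 bases before to 50 bases after the start were read from RefSeq (GRCm38.p6), and both strands were searched. The ETS core stood in 7 of the 13 promoters found there for the 20 homeostatic microglia genes and in 8 of 13 of the Fc receptor and SYK list, against 24.1% of all 27025 promoters. It stood in 2 of 9 promoters of myeloid transcription factors, 5 of 11 of ependymal genes, 1 of 8 of OPC transcription factors, 1 of 10 of OPC membrane genes and 2 of 12 of OPC receptor genes. The E-box stood in 1 of 8 promoters of OPC transcription factors, 3 of 10 of OPC membrane genes, 2 of 12 of OPC receptor genes and 6 of 13 of microglia genes, against 16.1% of all. A longer core, AGGAAGT, which contains the ETS core, stood in 5 of 13 microglia promoters, against 9.57% of all. It stood in 6 of 13 Fc receptor and SYK promoters and 4 of 11 ependymal promoters. In myeloid transcription factors it stood in 0 of 9. A match is a run of letters and not a binding site. Below, 60 bases of each promoter are written on the gene's strand, with the ETS core in capitals (ACTTCC is the same core on the other strand), for C1qb at chr4:136886221-136886280 (minus strand), C1qc at chr4:136893077-136893136 (minus strand), P2ry12 at chr3:59263004-59263063 (minus strand) and Siglech at chr7:55768001-55768060 (plus strand).
C1qb: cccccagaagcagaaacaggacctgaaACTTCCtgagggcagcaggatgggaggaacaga
C1qc: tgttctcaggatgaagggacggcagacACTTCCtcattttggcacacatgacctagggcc
P2ry12: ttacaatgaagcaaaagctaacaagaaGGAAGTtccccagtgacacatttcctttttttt
Siglech: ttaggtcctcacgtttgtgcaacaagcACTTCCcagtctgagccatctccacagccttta
For the OPC genes, the stretch of Lhfpl3 lies at chr5:22745878-22745937 (plus strand) and holds 2 E-boxes, in capitals. Those of Pdgfra at chr5:75152191-75152250 (plus strand) and Olig2 at chr16:91225490-91225549 (plus strand) hold neither motif in these bases and have no capitals.
Lhfpl3: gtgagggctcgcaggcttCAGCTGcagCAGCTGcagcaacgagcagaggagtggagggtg
Pdgfra: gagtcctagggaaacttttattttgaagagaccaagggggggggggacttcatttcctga
Olig2: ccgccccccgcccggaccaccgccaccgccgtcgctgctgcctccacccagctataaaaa

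The transcription factors of myeloid cells were higher in the same libraries. All 13 were tested, none was called, 11 were higher at an unadjusted p under 0.05 (background 5.59%), and the median was 2.00. Spi1, which encodes PU.1, was at 36.6, 22.8, 192 and 15.7 RPKM in BNAP/GRP1 and 0.156, 0.597, 189 and 2.83 RPKM in GRP3 (2.77 ± 0.69, adjusted p = 0.0925). Irf8, a partner of PU.1, differed by 2.49 ± 0.66 and Runx1 by 2.04 ± 0.65 (adjusted p = 0.11 and 0.208). Cebpb, an activation-linked factor, was at 15.0, 8.00, 446 and 28.9 RPKM in BNAP/GRP1 and 5.50, 7.79, 462 and 4.66 RPKM in GRP3, high in both libraries of batch 3. Without batch 3, Irf8, Maf and Spi1 rose.

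Fc receptors and the SYK pathway gave 10 of 15 genes higher at an unadjusted p under 0.05 (background 5.59%), with no call and a median of 2.25. Fcer1g, the shared gamma chain of Fc receptors, was at 2464, 2285, 1043 and 25.4 RPKM in BNAP/GRP1 and 5.51, 5.33, 992 and 15.6 RPKM in GRP3 (4.45 ± 1.06, adjusted p = 0.0914). Fcgr3, a low-affinity receptor for IgG, was at 663, 129, 484 and 21.0 RPKM in BNAP/GRP1 and 2.17, 2.08, 499 and 3.71 RPKM in GRP3 (3.82 ± 0.84, adjusted p = 0.0759). Both were high in BNAP/GRP1 1 to 3 and in GRP3 3. Syk itself was low in batches 1 and 2, at 6.44, 1.51, 65.6 and 15.5 RPKM in BNAP/GRP1 and 0.899, 0.630, 61.1 and 2.42 RPKM in GRP3 (1.24 ± 0.62, adjusted p = 0.561). The phosphatases Inpp5d and Ptpn6, which limit the pathway, differed by 2.71 ± 0.70 and 2.71 ± 0.73 (adjusted p = 0.102 and 0.117). Without batch 3, 7 of the 15 rose, against 1.76% of all genes. Fcer1g and Fcgr3 also rose when BNAP/GRP1 4 and the block were left out as well, against 0.320%.

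Cytokine and chemokine genes were mostly higher in BNAP/GRP1 in batches 1 and 2 and close to equal in batch 3. Of 18 inflammatory genes, 13 were higher at an unadjusted p under 0.05 (background 5.59%), none was called, and the median was 2.12. In all 4 batches 4 of the 18 were higher, against 7.30% of all genes. Ccl4, a chemokine of activated macrophages, was at 338, 4170.3, 4398 and 10.2 RPKM in BNAP/GRP1 and 5.67, 20.6, 4354 and 1.86 RPKM in GRP3 (3.81 ± 0.87, adjusted p = 0.083). Tnf was at 27.1, 146, 1247 and 10.7 RPKM in BNAP/GRP1 and 0.809, 0.987, 1207 and 1.5 RPKM in GRP3 (3.11 ± 0.73, adjusted p = 0.0872). Ccl4, Ccl3, Cxcl2 and Tnf were higher in BNAP/GRP1 2 than in BNAP/GRP1 1, whereas P2ry12 and Cx3cr1 were higher in BNAP/GRP1 1. Il6 was under 1 RPKM in all libraries of batches 1 and 2 and at 451 and 447 RPKM in batch 3. Spp1, osteopontin, was chosen for its large difference of the same sign in all batches, and it ranged from 15.3 to 16256 RPKM among the BNAP/GRP1 libraries.

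Border macrophages sit in the meninges and around vessels. Of 9 of their genes 7 were tested, 4 were higher at an unadjusted p under 0.05 (background 5.59%), none was called, and the median was 1.96. Stab1, a scavenger receptor, was at 701, 111, 246 and 156 RPKM in BNAP/GRP1 and 9.15, 4.17, 237 and 28.3 RPKM in GRP3 (3.26 ± 0.74, adjusted p = 0.083), and Pf4 differed by 3.34 ± 0.76 (adjusted p = 0.083). Cd163 and Lyve1, which define these cells, were under 1 RPKM in every library of batches 1 to 3 and were not tested. Without batch 3, Folr2, Pf4 and Stab1 rose.

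**Figure D4:**
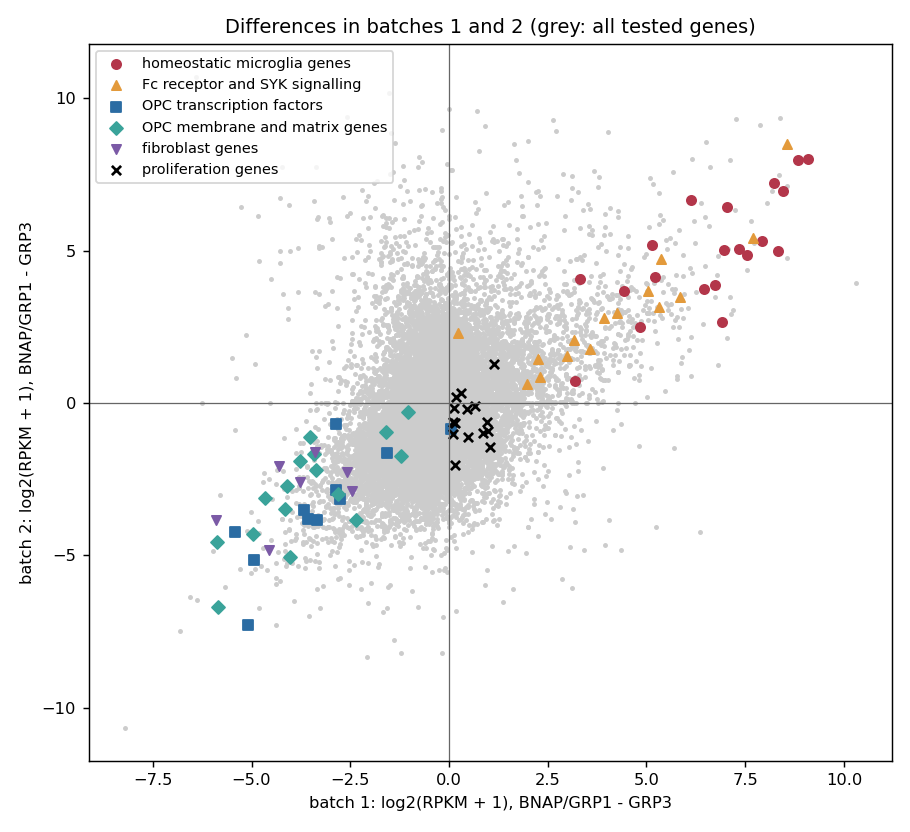
Difference in log2(RPKM + 1), BNAP/GRP1 minus GRP3, in batch 1 (horizontal axis) and batch 2 (vertical axis) for all 17213 tested genes in grey and for listed genes in colour. The 20 homeostatic microglia genes lie in the upper right area. At least 1 unit to the lower left lie 9 of 11 OPC transcription factors and 14 of 16 OPC membrane and matrix genes. Of all tested genes, 730 differ by at least 1 unit in opposite directions.

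Batch 3 was set apart because its libraries were alike and because both were low in OPC genes and Sox2. OPC genes were near 0 in both: Olig2 was at 0.340 RPKM in BNAP/GRP1 3 and 1.18 RPKM in GRP3 3, Sox10 at 0 and 1.19 RPKM, and Sox2 at 0.468 and 1.19 RPKM. The library labelled GRP3 3 had little RNA of the receptor it was sorted for, with Pdgfra at 3.41 RPKM. Adult globin genes were very high, with Hbb-bs at 98873 and 100180.0 RPKM, against at most 1078 RPKM in the other 6 libraries. Genes known from the lung were also present. Scgb1a1, the secretoglobin of airway club cells, was at 965 and 904 RPKM, and Chil3, a gene of alveolar macrophages, at 621 and 658 RPKM. Igkc, the kappa light chain of antibodies, was at 1518 and 1560.2 RPKM. In batches 1 and 2 the same 3 genes were under 1 RPKM in every library. Microglia genes shared with other macrophages (Tyrobp, C1qa, Ctss) were high in both libraries of batch 3, while those more particular to microglia (P2ry12, Cx3cr1, Fcrls, Sall1) were at most 1.94 RPKM. The source of this RNA was not tested.

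BNAP/GRP1 4 was set apart as the library of lowest estimated depth. Yet it had 38191 genes above 0, against 31999 in BNAP/GRP1 1. It had 357 tested genes at 0, against 140 to 2080 in the other libraries. Whether it was sequenced less deeply was not tested. In batch 4, 8426 of 17213 genes were at least 1 log2 unit higher in BNAP/GRP1, or 49.0%, and 2472 were that much lower, or 14.4%. Genes at or near 0 in the other BNAP/GRP1 libraries stood at several RPKM there, as Lum at 6.58 RPKM and Aqp1, a water channel of the choroid plexus, at 9.05 RPKM. Against this raised floor, Pdgfra in batch 4 was -2.78, Olig1 -3.20, Olig2 -2.70 and Lhfpl3 -2.62, so these 4 kept the direction of batches 1 and 2. Of all 43 OPC genes tested, 28 were lower and 15 higher in batch 4, against 41 lower and 2 higher in each of batches 1 and 2. Of all 17213 genes, 4775 were lower and 12366 higher in batch 4. Trem2 was 2.77, Cd52 2.68, Tyrobp 1.86 and C1qc 2.26. They stood at 27.1, 30.2, 16.0 and 20.7 RPKM in BNAP/GRP1 4, where 18496 genes reached 10 RPKM. Differences of depth or of this floor and differences of population cannot be told apart for such genes in batch 4.

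The vascular and connective tissue lists stood out in fibroblast genes. Of 9 fibroblast genes 7 were tested, 4 were lower at an unadjusted p under 0.05 (background 3.81%), and none was called. All 7 were at least 1 log2 unit lower in batches 1 and 2, against 13.3% of all genes. Their median was -1.48. Dcn, the matrix proteoglycan decorin, was at 24.6, 30.9, 9.50 and 39 RPKM in GRP3 and 0.0840, 0.124, 7.92 and 7.10 RPKM in BNAP/GRP1 (-2.98 ± 0.71, adjusted p = 0.0914). Igf2, a growth factor, differed by -2.34 ± 0.82 and Col1a2 by -1.62 ± 0.67 (adjusted p = 0.275 and 0.409). These genes were higher in GRP3 1 and 2, at levels far under those of Pdgfra, a receptor that fibroblasts also carry. Dcn and Igf2 fell without batch 3. The summed level of the list was 215, 148, 49.0 and 113 RPKM in GRP3 and 2.89, 12.2, 47.1 and 99.1 RPKM in BNAP/GRP1, and the part of fibroblasts in the other differences was not tested.

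Pericyte genes, which matter because pericytes carry NG2, were mostly too low to test (5 of 12 tested, none called, median 0.46), and Pdgfrb, the receptor that defines these cells, ranged from 0.0681 to 7.31 RPKM over the 8 libraries. Smooth muscle genes (4 of 8 tested, median 0.41) gave no call either. Batch medians were -1.22, 0.02, 0.01 and 1.47 for pericyte genes and -0.32, 0.35, -0.27 and 1.79 for smooth muscle genes, highest in batch 4. Of 17 endothelial genes 10 were tested with a median of 0.78 and batch medians of 0.15, 1.03, -0.08 and 1.56. Mfsd2a, a lipid transporter, went the other way from the rest, at 91.8, 95.6, 1.51 and 39.6 RPKM in GRP3 and 3.45, 0.561, 1.39 and 7.24 RPKM in BNAP/GRP1 (-3.18 ± 0.75, adjusted p = 0.0889). Its endothelial companions Cldn5 and Pecam1 were under 2 RPKM in GRP3 1 and 2. Choroid plexus genes (2 of 7 tested, median 0.67) and ependymal genes (4 of 14, median 0.11) were low in both populations. Erythroid genes (5 of 8 tested) had a median of 1.22 in batch 1 and 5.33 in batch 2, so globin RNA was higher in BNAP/GRP1 2 than in GRP3 2. Alveolar macrophage genes (9 of 10 tested, median 0.68), lung epithelium genes (3 of 11, median 0.55) and immunoglobulin genes (8 of 8, median 0.76) gave no call after adjustment. Batch medians were 0.13, 0.15, -0.06 and 1.82 for alveolar macrophage genes and 0, 0.01, -0.22 and 2.20 for lung epithelium genes. For immunoglobulin genes they were -0.10, 0.37, 0.10 and 2.10. All were highest in batch 4, where the median of all tested genes was 0.96. Ighm, the heavy chain of IgM, was at 42.4, 20.2, 845 and 12.7 RPKM in BNAP/GRP1 and 0.334, 0.657, 839.7 and 1.41 RPKM in GRP3, and it rose without batch 3.

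Genes of the neuronal side were not called. All 17 neuroblast genes were tested, none had an unadjusted p under 0.05, and the median was 0.87. At least 1 log2 unit higher in batches 1 and 2 were 8, against 5.93% of all genes, and 1 was that much lower, which was Dcx, at 15.8, 11.8, 0.367 and 5.75 RPKM in BNAP/GRP1 and 33.2, 30.7, 0.124 and 10.9 RPKM in GRP3. Dlx1, a homeodomain factor of interneuron progenitors, was at 71.1, 30.7, 0.554 and 20.7 RPKM in BNAP/GRP1 and 12.2, 12.8, 0.138 and 12.7 RPKM in GRP3 (1.19 ± 0.59, adjusted p = 0.554). Sp9 differed by 1.25 ± 0.62 and Igfbpl1 by 1.14 ± 0.63 (adjusted p = 0.555 and 0.61). Sp8 was higher in BNAP/GRP1 in batches 1 and 2 and at 92.0 RPKM in GRP3 4.

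Astroglial and radial glial genes were mixed, with 21 of 23 tested, 1 lower at an unadjusted p under 0.05 and a median of 0.21. Fabp7 was among the most abundant transcripts of GRP3, at 10174, 14732, 196 and 3299.9 RPKM, and was at 3102, 4424, 197 and 327 RPKM in BNAP/GRP1 (-1.69 ± 1.00, adjusted p = 0.653). Sox2 was at 219, 231, 1.19 and 23.6 RPKM in GRP3 and 75.7, 18.3, 0.468 and 13.3 RPKM in BNAP/GRP1 (-1.62 ± 0.60, adjusted p = 0.316). Both were higher in GRP3 in batches 1, 2 and 4. Aqp4, the astrocyte water channel, was higher in BNAP/GRP1 1 and 2, at 15.0, 13.2, 0.0324 and 5.84 RPKM against 2.34, 3.29, 0.105 and 4.10 RPKM in GRP3 (1.08 ± 0.65, adjusted p = 0.663). Apoe, which astrocytes and macrophages both make, was at 6953, 1745, 7236 and 69.4 RPKM in BNAP/GRP1 and 248, 156, 7184 and 306 RPKM in GRP3 (1.54 ± 1.02, adjusted p = 0.701). Gfap was too low to be tested.

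Proliferation genes showed how the batches could disagree. All 15 were higher in BNAP/GRP1 in batch 1, as were 5914 of all 17213 genes, and 12 were lower in batch 2, as were 9993 of all genes. The list had batch medians of 0.46 and -0.63 in batches 1 and 2 and a median of -0.09 over 4 batches. Pcna, a clamp of DNA replication, was at 846, 198, 248 and 17.3 RPKM in BNAP/GRP1 and 414, 539.7, 248 and 94.3 RPKM in GRP3 (-0.70 ± 0.68, adjusted p = 0.821). Immediate early genes, which sorting itself can induce, had a median of 0.02 over 17 of 18. Egr1 was at 674, 1117, 9.34 and 58.9 RPKM in GRP3 and 351, 209, 5.71 and 14.2 RPKM in BNAP/GRP1 (-1.49 ± 0.58, adjusted p = 0.361), and Fos differed by -1.51 ± 0.65 (adjusted p = 0.446). Atf3 went the other way, at 29.4, 82.6, 305 and 6.02 RPKM in BNAP/GRP1 and 1.60, 0.787, 276 and 2.21 RPKM in GRP3 (2.59 ± 0.71, adjusted p = 0.119), and it rose without batch 3.

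**Figure D5:**
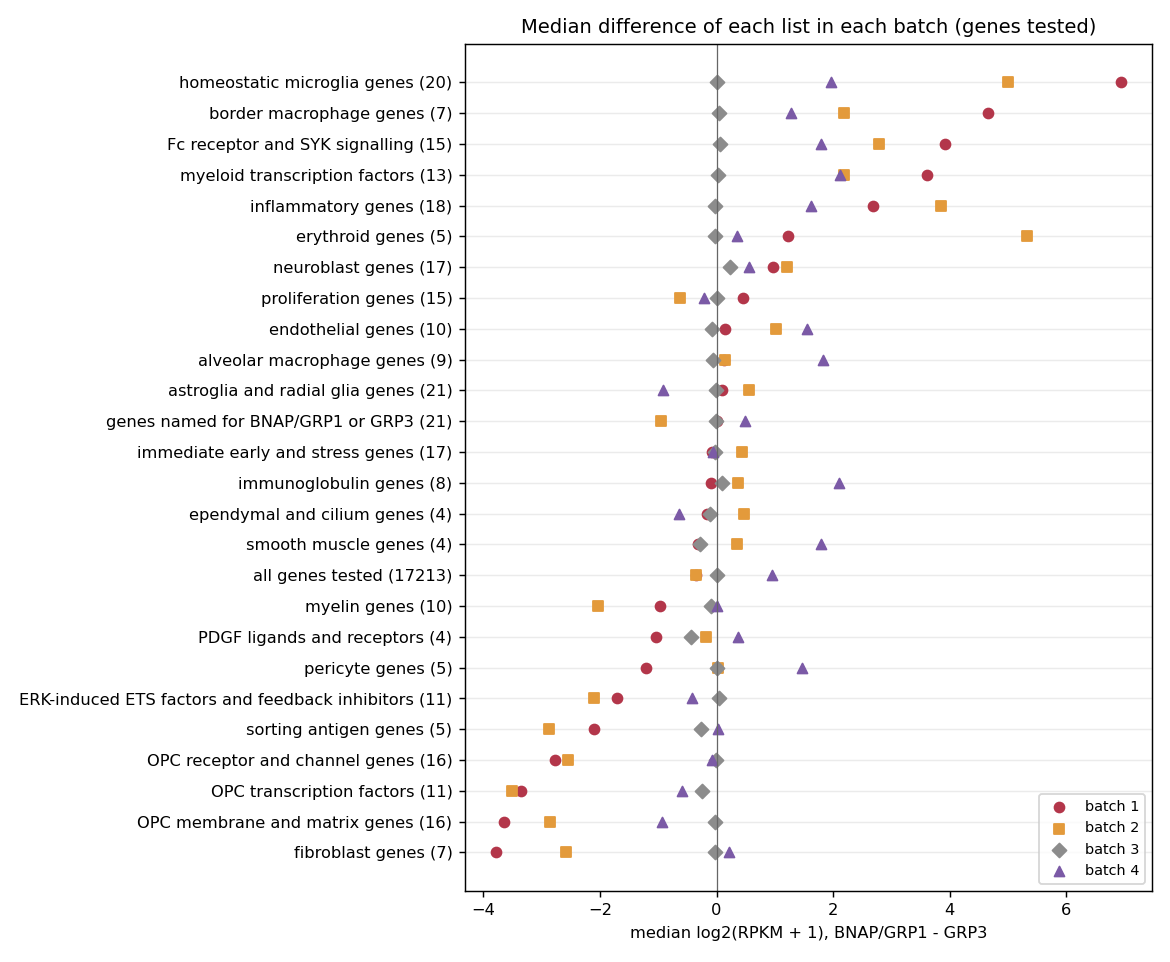
Median difference in log2(RPKM + 1), BNAP/GRP1 minus GRP3, of the tested genes of each list (horizontal axis), with 1 symbol for each batch and the number of tested genes in brackets. The microglia, myeloid and inflammatory lists lie to the right in batches 1 and 2, the OPC and fibroblast lists to the left, and the batch 3 medians of these lists lie near 0.

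Of 25 genes the study names for BNAP/GRP1 or GRP3, 21 were tested in the direct comparison, with 1 call (Lhfpl3) and a median of -0.28. Some are named for higher RNA than in neural stem cells, and others as transcription factors predicted from networks of such genes. The study chose this list on these libraries, so its direction is not independent evidence. Cryba4, a crystallin, was at 116, 118, 2.68 and 3.80 RPKM in BNAP/GRP1 and 1.96, 0, 1.79 and 1.63 RPKM in GRP3 (3.37 ± 0.85, adjusted p = 0.1). Gpr34, a receptor of microglia, was at 149.6, 7.25, 0.868 and 4.91 RPKM in BNAP/GRP1 and 0.250, 0.301, 0.653 and 3.22 RPKM in GRP3 (2.56 ± 0.85, adjusted p = 0.224). Igkv4-56, an antibody variable segment, was high in BNAP/GRP1 2 alone, at 150.0 RPKM, against at most 5.64 RPKM in the other 7 libraries. On the GRP3 side, Dmrtb1, a DM-domain factor, was at 87.1, 82.3, 0.392 and 9.48 RPKM in GRP3 and 2.24, 1.07, 0 and 9.54 RPKM in BNAP/GRP1 (-2.64 ± 0.80, adjusted p = 0.166), and Matn4, a matrix protein, differed by -2.38 ± 0.77 (adjusted p = 0.212). The widely used factors Trp53 and Sp1, which the study names from predicted networks, differed by 0.19 ± 0.58 and -0.28 ± 0.58 (adjusted p = 0.954 and 0.925).

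The remaining 17 called genes were not protein coding, although 77.2% of the tested genes found in the annotation were. They were 7 snoRNAs, 3 miRNAs, 1 scaRNA, 4 processed pseudogenes and 2 antisense genes, between 75 and 443 exon bases long. Most were listed at 0 in 3 or more libraries of the lower population. Gm24888, a snoRNA inside Rpl27a, was at 106, 105, 80.4 and 73.5 RPKM in GRP3 and 10.1, 0, 0 and 0 RPKM in BNAP/GRP1 (-5.64 ± 0.64, adjusted p = 0.000229). Its host gene, for a ribosomal protein, differed by 0.59 with an adjusted p of 0.864. Gm23722, a snoRNA inside Rnf149, was at 32.8, 167, 291 and 576 RPKM in BNAP/GRP1 and 0, 0, 155 and 0 RPKM in GRP3 (5.64 ± 0.86, adjusted p = 0.0065), while Rnf149 differed by -0.44 with an adjusted p of 0.879. Gm22579 and Gm23455, both inside Taf1d, were called in opposite directions, at 5.49 ± 0.97 and -4.41 ± 0.83 (adjusted p = 0.0219 and 0.0327). For genes this short, RPKM makes a few reads large, and the libraries differed in estimated depth.

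The antisense gene Gm38039, opposite Tnr, was at 1582, 1061, 5.88 and 803 RPKM in GRP3 and 119, 67.7, 0 and 38.5 RPKM in BNAP/GRP1 (-3.70 ± 0.57, adjusted p = 0.0065). Gm28221, opposite Ncald, was at 201, 80.6, 0.125 and 10 RPKM in GRP3 and 1.14, 0, 0 and 0 RPKM in BNAP/GRP1 (-4.13 ± 0.83, adjusted p = 0.0439). Tnr, an extracellular matrix protein of the OPC list, differed by -1.71 ± 0.67, and Ncald, a calcium sensor, by -2.63 ± 0.67 (adjusted p = 0.362 and 0.1). Whether reads were counted by strand is not given in the sources used here, so reads of each antisense gene and of the gene opposite to it cannot be told apart. Gm3699, a pseudogene of 75 exon bases, was the most negative of the tested genes (-6.36 ± 1.05, adjusted p = 0.0107) and was at 3805 RPKM in BNAP/GRP1 3 and 0 in the other BNAP/GRP1 libraries. Its reads may be shared with the parent gene, so its values are uncertain.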

How the data were processed

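RNA of 20 sorted-cell libraries was sequenced by the study after polyA amplification, and the authors deposited a table of RPKM, read counts corrected for the length of the gene and the size of the library, covering 45705 mouse genes. The submitters' processing notes name FastQC 0.11.9, cutadapt 3.4, STAR 2.6.1, Salmon 1.9.0, DESeq2 1.26.0 and the GRCm38 build. The gene lengths, read totals and strand setting behind the RPKM are not given in the sources used here, so no counting interval can be given. The RPKM of a library summed to 977557 to 2407643. Each column was matched to its sample by population and batch in its name, and 0 other columns of sample values were in use.

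A gene was kept if it reached 1 RPKM in 4 or more of the 8 libraries. The RPKM were logged as log2(RPKM + 1), not rescaled, and limma 3.58.1 in R 4.3.3 fitted population and batch number as terms (lmFit, then eBayes with a trend). Every adjusted p is from limma's moderated test, two-sided, corrected over the 17213 genes after Benjamini and Hochberg, and 0.05 was the threshold. With the batch as a block, the p-values measure the spread of the differences within batches, moderated by eBayes toward a trend over all genes. The block was used because the labels give the numbers as batches. After each population's mean was removed, libraries of the same batch correlated at 0.405, 0.208, 0.814 and 0.577, and libraries of different batches at -0.559 to 0.466, so that batches 1 and 2 were not separated by this measure. The steps were tested on simulated data, in which each gene had independent noise of the same spread in every batch. In the real data the SD of the differences over genes was 1.35, 1.91, 0.557 and 1.53 in batches 1 to 4. That test therefore does not cover batches of unequal spread.

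The members and the 27 gene lists were chosen with earlier results of these data known, so no p is given for a list, and lists are described by counts and medians. Genes are named if they had the largest differences among called genes (up to 10 in each direction) or among genes with the same sign in all 4 batches and a mean of at least 10 RPKM (10 in each direction), if they are list members, or if the study names them. The other called genes and the genes of the closing section were named after their values were seen. Names were followed by Ensembl identifier, and all 406 genes looked up had a position in the annotation. Tables and plots used Python 3.11.15, pandas 2.3.3 and matplotlib 3.10.9. The results were recomputed without the batch block, with all 20 libraries, on subsets of the libraries, with 0.1 as pseudocount, without the filter or with a mean RPKM of 5 as its minimum, after quantile or median-of-ratios scaling, and with an untrended prior. The fit without both batch 3 and BNAP/GRP1 4 was added after seeing the data. A few list members are not reported here by name but remain in the counts and medians.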

Additional observations from a re-analysis of the deposited data

Results flagged for a closer look

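In 20 of 86 groups of 4 libraries tested (23.3%), the highest or lowest library lay farther from the others than Dixon's test allows at 95%. Chance gives about 1 in 20 groups, and the groups are not independent, since genes of a list move together. All values here are on a log2 scale, except the last.

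GRP3 3 stood apart from the other GRP3 libraries in most of them. Its summed RPKM was low for OPC membrane and matrix genes (4.03, against 11.3 to 11.4 in the other 3) and for OPC receptor and channel genes (1.47, against 8.36 to 9.23). It was high for homeostatic microglia genes (13, against 5.98 to 6.21), myeloid transcription factors (10.02, against 5.06 to 5.56), inflammatory genes (14.8, against 6.13 to 6.86) and erythroid genes (17.9, against 6.65 to 8.37). Among single genes, GRP3 3 was high for Cd52 (10.2), Tyrobp (10.4), Bcl2a1b (9.16), C1qc (9.44) and Ly86 (6.93), and low for Cntn1 (0.68).

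BNAP/GRP1 4 was the low library of its population for Fc receptor and SYK genes (7.34, against 11.2 to 11.8), for astroglia and radial glia genes (9.44, against 12.8 to 13.4) and for Tyrobp (4.09), and the high one for Pdgfra (4.65, against 1.71 to 2.20). BNAP/GRP1 3 was low for Olig1 (0.95) and Scrg1 (0.0249). GRP3 4 was high for ependymal and cilium genes (6.39, against 3.26 to 3.78) and in the number of genes at 1 RPKM or more (34536, against 13074 to 15436).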

How the results depend on the processing

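The counts of called genes, 8 higher and 17 lower in BNAP/GRP1, depended on nearly every choice. With no replicate block, with all 20 libraries and the replicate block, with no filter, a stricter filter, quantile or median-of-ratios scaling, with batches 1 and 2 alone (with or without the replicate block), and without BNAP/GRP1 4 and the block, limma called 0 genes higher and 0 lower. At an unadjusted p under 0.05 the first of these still had 220 higher and 86 lower, and the others 220 to 1017 higher and 261 to 2394 lower, the last with batches 1 and 2 alone and no block, against 1017 higher. A pseudocount of 0.1 gave 0 higher and 7 lower, a prior without a trend 1 and 8, and leaving out batch 3 and the block 1 and 2. Leaving out 1 batch in turn gave 0 to 303 higher and 0 to 148 lower; without batch 1 they were 105 and 36, without batch 2 173 and 65, without batch 3 303 and 148, and without batch 4 0 and 0. Without batch 3, limma's test had a median of 34426 total degrees of freedom, so its many calls rest on the spread being alike across genes. The calls without batch 1 and without batch 2 need the same caution. Without batch 3, BNAP/GRP1 4 and the block, 55 were higher and 23 lower, with 10 of the 25 calls kept. For the 25 called genes and 7 others with the same sign in all 4 batches, no difference changed sign. This says little, since the 7 were chosen for that sign, which dropping whole batches cannot turn. The 8 libraries without the block, all 20 libraries, another filter or an untrended prior also return the main difference unchanged. Over 17 alternatives, 196 values kept their side of the threshold, 323 were no longer past it and 25 newly passed it. Of all 343 named genes tested, 83 changed sign in at least 1 alternative, each with a difference under 1 log2 unit in size. The median of OPC transcription factors, -1.83, was -3.59 with batches 1 and 2 alone, with or without the replicate block, and -3.59 to -1.21 over all alternatives. That of microglia genes ran from 2.17 to 6.10 and that of myelin genes from -1.35 to -0.04. Of 19 list medians, 5 changed sign in an alternative: alveolar macrophage (-0.32 to 1.12), immunoglobulin, astroglia, proliferation and immediate early genes. The median of all genes was 0.39 with no filter and -0.37 without batch 3, BNAP/GRP1 4 and the block, against 0.0013, and list medians stand relative to these shifts. The unknown read totals limit what a low RPKM can show, most of all in BNAP/GRP1 4.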

Other observations

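Some protein-coding genes outside every list differed strongly in both batches 1 and 2. They were picked after their values were seen, as those with the largest smaller difference of these 2 batches, so they are a description. The first are from the BNAP/GRP1 side. Ly86, a partner of a toll-like receptor, was at 1397, 513, 126 and 4.49 RPKM in BNAP/GRP1 and 2.70, 2.68, 121 and 1.66 RPKM in GRP3 (4.20 ± 0.97, adjusted p = 0.0834 in limma). Lst1, a leukocyte membrane protein, was at 323, 765, 107 and 5.08 and 2.58, 1.04, 91.0 and 0.486 RPKM (4.33 ± 0.90, adjusted p = 0.0577). Bcl2a1b, an anti-apoptotic gene of blood cells whose near-identical copies can share reads, was at 1496, 939, 619 and 10.1 and 3.54, 4.23, 572 and 2.20 RPKM (4.44 ± 0.95, adjusted p = 0.0599). Cd53, Cd68, Cyba and Pycard, for a tetraspanin, a lysosomal protein, an oxidase subunit and an inflammasome adaptor, differed by 3.73, 3.69, 3.47 and 3.16. All of these were high in both libraries of batch 3, as Tyrobp was.

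The next are from the GRP3 side. Dll3, a Notch ligand that acts within the cell, was at 213, 157, 2.05 and 58.1 RPKM in GRP3 and 6.67, 7.19, 0 and 18.8 RPKM in BNAP/GRP1 (-3.07 ± 0.64, adjusted p = 0.0569). Omg, a myelin-associated glycoprotein of the oligodendrocyte lineage, was at 127, 137, 0.239 and 55.7 and 6.14, 3.79, 0 and 14.1 RPKM (-2.81 ± 0.68, adjusted p = 0.0925). Epn2, an endocytic adaptor, was at 161, 206, 2.14 and 60.9 and 4.38, 3.71, 2.72 and 14.5 RPKM (-3.03 ± 0.74, adjusted p = 0.0925). Gsx1, a homeodomain factor of the ventral forebrain, was at 39.9, 33.6, 0 and 14.7 and 1.04, 0.160, 0 and 10.5 RPKM (-2.42 ± 0.78, adjusted p = 0.211). Hap1, a huntingtin-binding protein, was at 166, 224, 0.297 and 2.53 and 6.01, 7.21, 0.154 and 9.26 RPKM, so it was higher in GRP3 in batches 1 to 3 and lower in batch 4. In batch 3 these 5 genes were at most 2.72 RPKM in either library.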
